A study of Mus musculus with 29 samples.

Results

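The IGF binding proteins are the 7 secreted proteins Igfbp1 to Igfbp7, chosen here by gene name. All 7 were found among the 55421 genes of the count table, and all 7 passed the filter on low counts in every comparison. RNA came from whole liver of C57BL6 mice in 6 groups, with counts for 27 of the 29 mice in the labels. Young vehicle mice were 5 months old and of the substrain labelled C57BL6/N, with 5 females and 4 males. Old vehicle mice were C57BL/6J, with 4 females at 20 months and 4 males at 24 months, all ages being those of the labels. Old HDM201 mice, 5 females and 5 males, were C57BL/6J of the same ages as the old vehicle mice of their sex and received 10 mg/kg HDM201, an inhibitor of the p53 antagonist MDM2, by oral gavage each day for 14 days. Age and substrain cannot be told apart in any comparison of old with young mice, and old females and old males also differ in age. Libraries held 16485900 to 23570500 reads on genes, and the 5 hepatocyte markers found, among them Alb and Ttr, summed to at least 73306 CPM (read counts scaled to library size after TMM normalisation) in every mouse.

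Insulin-like growth factors circulate bound to these proteins, which prolong their life in plasma and hold them back from the IGF1 receptor. The liver makes most circulating Igf1, together with Igfals, the acid-labile subunit that joins Igf1 and Igfbp3 or Igfbp5 in a large complex. Igfbp1 rises in the liver during fasting and falls with insulin, Igfbp2 also falls with feeding and growth hormone, and several members are secreted by senescent cells. Igfbp7 binds IGFs weakly and is made mainly by cells of vessels and stroma.

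Several members lie side by side in the genome (GRCm38, the assembly of mm10). Igfbp1, at chr11:7197782-7202546 on the plus strand, and Igfbp3, at chr11:7206086-7213923 on the minus strand, end 3539 bases apart with no gene between them. Igfbp2, at chr1:72824503-72852474 on the plus strand, and Igfbp5, at chr1:72857932-72874884 on the minus strand, are likewise tail to tail, 5457 bases apart. Igfbp4 (chr11:99041244-99054392, plus strand) and Igfbp6 (chr15:102144362-102149511, plus strand) stand alone. Igfbp7, at chr5:77349240-77408041 on the minus strand, is overlapped by Polr2b and the antisense model Gm34648, both on the plus strand, which share 85 of the 1209 bases of its exons. Whether counting used the strand is not stated, so a small part of its reads is uncertain.

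The bases just before the start sites of Igfbp1, Igfbp2 and Igfbp7 are shown because these are the members that passed the test between old and young mice. Each run holds the 250 bases upstream of a RefSeq start site (GRCm38.p6, 1 of 2 entries for Igfbp2), 5′ to 3′ on the gene's strand. Capitals in Igfbp1 (chr11:7197537-7197786) mark CAAAACAA, the core of the insulin response element known for this promoter, at positions -108 to -101. Capitals in Igfbp2 (chr1:72824230-72824479) and Igfbp7 (chr5:77408046-77408295, minus strand) mark the GC box GGGCGG or its complement CCGCCC, the letters read by Sp1.
Igfbp1: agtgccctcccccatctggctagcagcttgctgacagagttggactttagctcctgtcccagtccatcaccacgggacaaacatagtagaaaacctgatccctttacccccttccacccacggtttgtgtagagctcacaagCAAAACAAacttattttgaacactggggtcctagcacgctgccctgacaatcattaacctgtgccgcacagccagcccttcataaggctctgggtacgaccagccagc
Igfbp2: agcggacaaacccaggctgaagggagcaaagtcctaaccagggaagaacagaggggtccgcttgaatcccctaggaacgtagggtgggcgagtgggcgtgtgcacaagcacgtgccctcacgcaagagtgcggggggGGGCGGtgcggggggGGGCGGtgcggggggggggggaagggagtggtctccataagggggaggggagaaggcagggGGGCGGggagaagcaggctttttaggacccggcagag
Igfbp7: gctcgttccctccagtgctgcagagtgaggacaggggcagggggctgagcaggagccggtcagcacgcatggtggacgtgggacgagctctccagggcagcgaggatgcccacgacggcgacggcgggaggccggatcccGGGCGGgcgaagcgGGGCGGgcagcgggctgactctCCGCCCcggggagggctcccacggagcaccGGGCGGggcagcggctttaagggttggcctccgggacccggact

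Igfbp1 alone of the 7 held CAAAACAA, which occurred on either strand in 2.21% of 32851 upstream windows of this length. GGGCGG was found 3 times in Igfbp2 and 4 times in Igfbp7 and in no other member, against 32.7% of all windows with at least 1 match. The Igfbp1 window was 53.2% G and C, the Igfbp2 window 67.2% and the Igfbp7 window 74.0%. TATAAA (12.4% of windows, either strand) was present in the windows of Igfbp4, at -28 to -23, and Igfbp6, on the other strand at -148 to -143. Neither TTCNNNGAA, the letters read by the growth hormone factor Stat5 (7.02% of windows), nor the p53 half-site (7.13%) was found in any of the 7 windows. These are matches of letters, and binding was not measured.

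Liver Igfbp mRNA was mostly Igfbp4 and Igfbp2. Per kilobase of exon, the median over 27 mice was 443 CPM for Igfbp4, 216 for Igfbp2, 79.8 for Igfbp7, 42.0 for Igfbp1, 9.61 for Igfbp3, 1.72 for Igfbp5 and 1.42 for Igfbp6. Neighbours in this order overlapped over mice, except that the lowest Igfbp3 value of 4.85 per kilobase lay above the highest Igfbp5 value of 3.91. The narrowest range from lowest to highest mouse was that of Igfbp4, an inhibitory binding protein cleaved by Pappa, with 1325 CPM in the lowest mouse and 2391 in the highest, a range of 1.80-fold. Within groups, the coefficient of variation averaged 13.4% for Igfbp4 and 11.6% for Igfbp7. Igfbp1 ranged 20.7-fold, from 10.1 to 209.6 CPM, and its coefficient within a group was between 25.0% and 120%. Igfbp6, which prefers Igf2, was near the limit of counting at 0.0635 to 4.72 CPM.

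**Figure D1:**
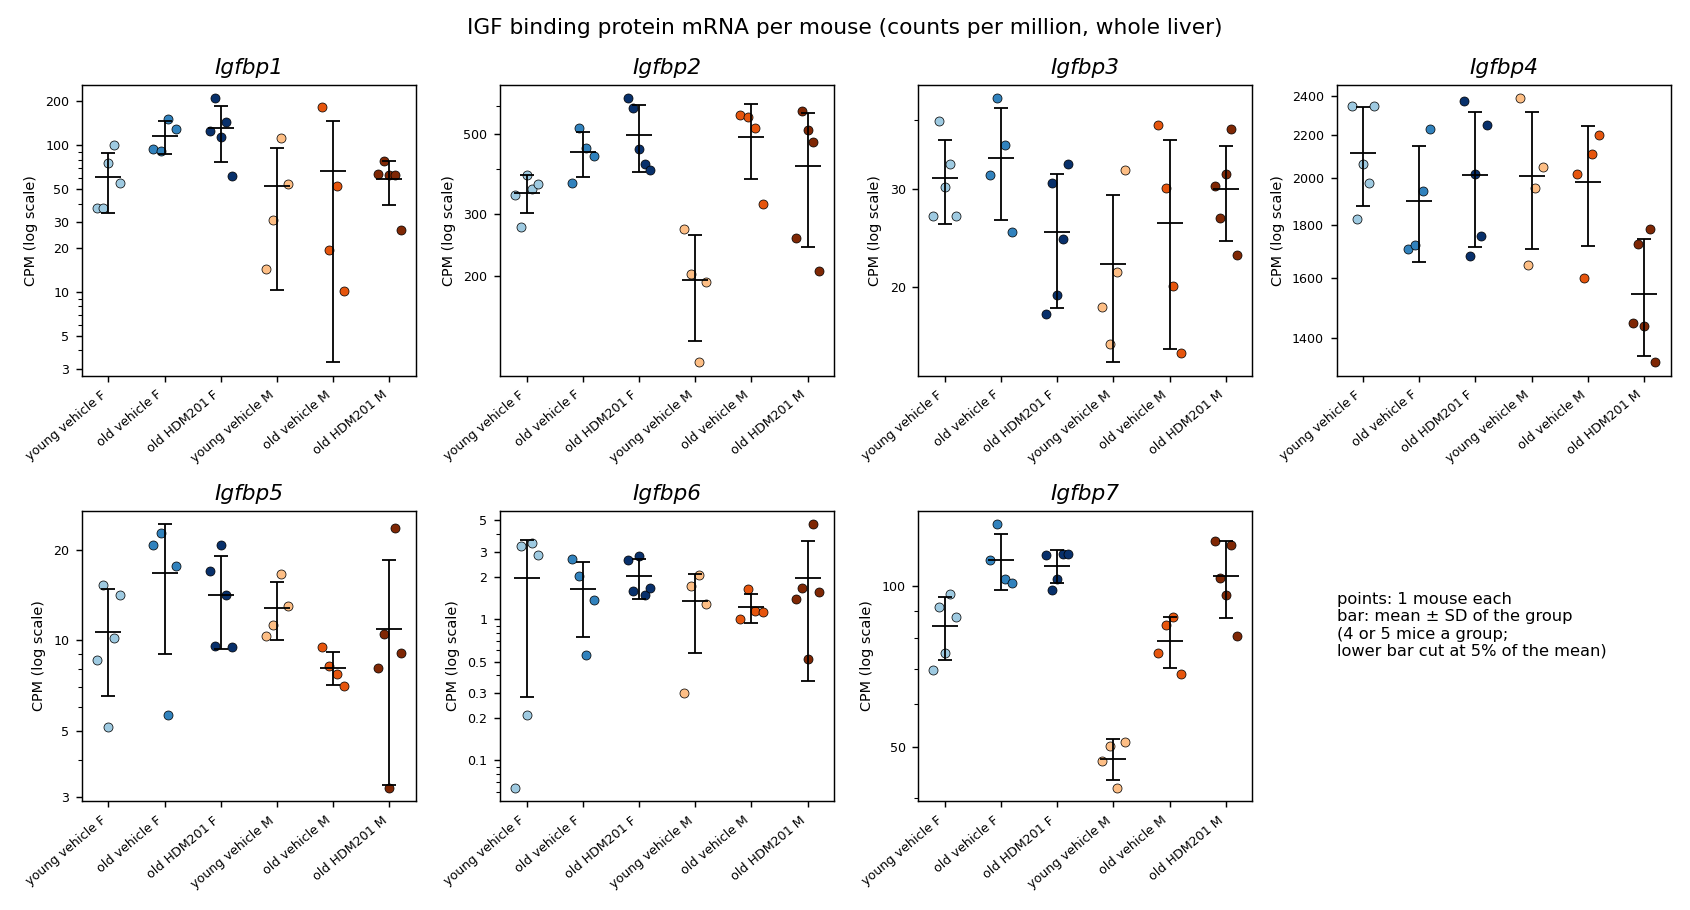
CPM of each IGF binding protein in each of 27 mice (log axis), by group, with the mean ± SD of each group. Igfbp7 in young vehicle males, at 41.8 to 50.9 CPM, lies below every mouse of the other 5 groups, while Igfbp1 spreads from 10.1 to 183 CPM within old vehicle males.

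The make-up of this mRNA pool differed between young and old vehicle mice, which also differed in substrain. As a share of the summed CPM per kilobase of the 7 genes, Igfbp4 took 60.8% ± 3.78 in young vehicle females (SD, n = 5) and 50.3% ± 3.92 in old vehicle females (n = 4), against 70.3% ± 2.18 in young vehicle males (n = 4) and 54.3% ± 9.22 in old vehicle males (n = 4). Igfbp2 took 23.5% ± 1.60 and 28.1% ± 3.24 in young and old vehicle females, and 16.4% ± 4.67 and 31.8% ± 6.73 in young and old vehicle males. After HDM201 the shares of Igfbp4 were 50.0% ± 6.34 in females and 50.2% ± 6.00 in males (n = 5 each). These shares are descriptions with no test. The summed CPM of the 7 genes was 2645 ± 241 in young females, 2628 ± 258 in old females on vehicle and 2795 ± 309 in those on HDM201. In males the sums were 2344 ± 329, 2654 ± 259 and 2157 ± 371 in the same order, with overlapping ranges.

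**Figure D2:**
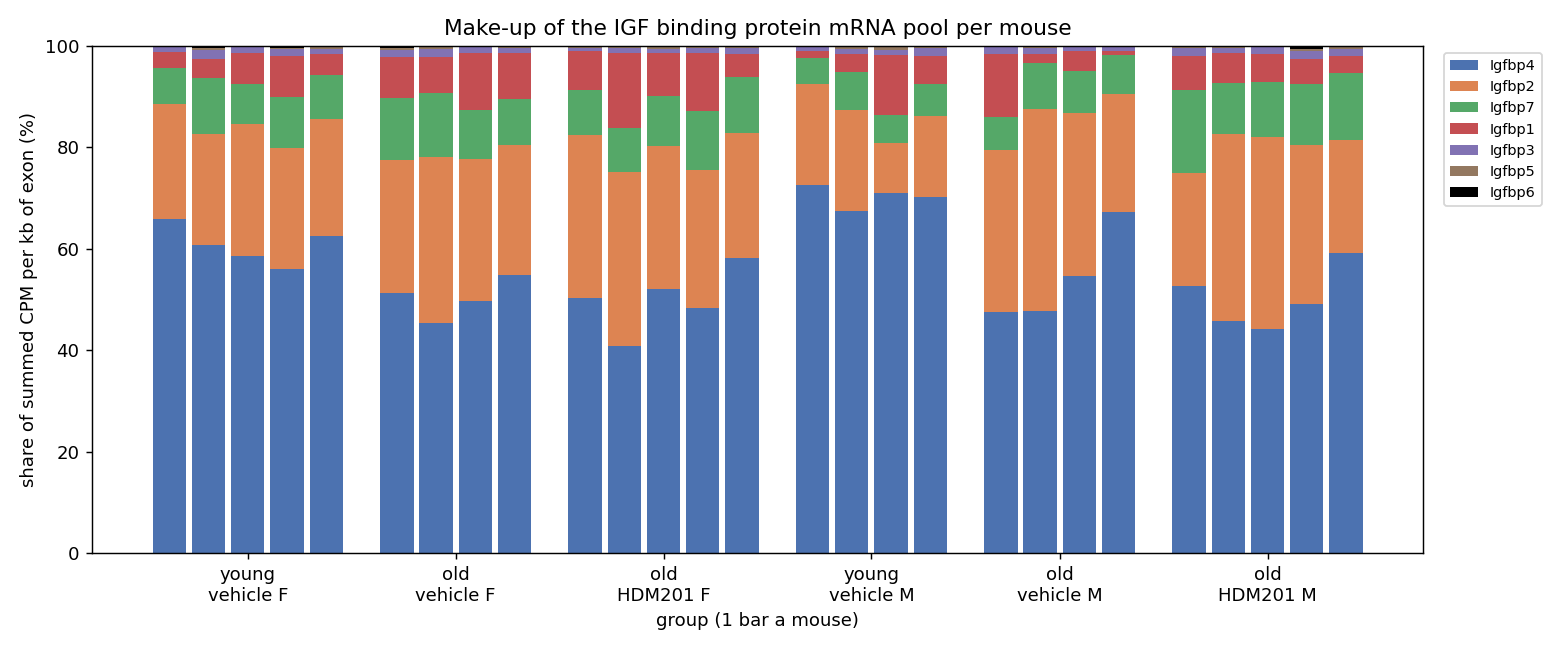
Share of each IGF binding protein in the summed CPM per kilobase of exon, 1 bar a mouse, by group. Igfbp4 is the largest part of each bar, at 40.8% or more, and Igfbp2 has its smallest shares in the young vehicle males, with a mean of 16.4%.

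The comparison of old with young vehicle mice asks how the aging liver differs without drug. In females, 3 of the 7 members passed the test (edgeR quasi-likelihood test, false discovery rate, FDR, under 0.05 over all genes), and all 3 were higher in old mice. In this comparison 31.8% of 14233 genes tested passed in either direction and 16.8% passed as higher, so a call was common in this comparison. In males, 2 members passed, both higher in old mice, where 3.69% of 13755 genes passed and 2.76% passed as higher. Median log2 fold changes of the 7 members were 0.40 in females and 0.25 in males, beside 0.01 and -0.01 over all genes tested.

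Igfbp2, a binding protein made by hepatocytes, was called in both sexes. Old vehicle females had 365, 519.9, 458 and 436 CPM, and young vehicle females 338, 275, 385, 351 and 362. One old female lay inside the range of the young, and the other 3 lay above it. The log2 fold change was 0.40 (SE 0.12, FDR = 0.0212 by edgeR).

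Male values were further apart. Old vehicle males had 565, 559, 519.6 and 319.8 CPM of Igfbp2, and young vehicle males 272, 203, 115 and 194. Every old male with counts was above every young male with counts, with a log2 fold change of 1.33 (SE 0.26, edgeR FDR = 0.0254). By FPKM, old vehicle male 1, which had no counts, stood at 144, inside the 84.3 to 209 of the young males with counts. The call in males was lost, at FDR from 0.0528 to 0.0742, without any 1 of old males 2, 3 and 4 or young males 2 and 4. In females it was lost without old female 2 (FDR = 0.0797) and with all 6 groups in one fit (FDR = 0.261). With a block for the replicate number the calls of both sexes were lost (FDR = 0.0586 in females and 0.0536 in males). The difference between the sexes in the age effect was -0.92 on the log2 scale (females minus males, SE 0.29) and missed the threshold at FDR = 0.0774, but passed with DESeq2 (FDR = 0.0235).

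Igfbp7, which binds insulin and IGFs weakly and is rich in vessel walls, was also called in both sexes. Old vehicle females had 112, 131, 103 and 101 CPM, and young vehicle females 69.5, 91.7, 74.9, 96.9 and 87.7. The groups did not overlap, with a log2 fold change of 0.43 (SE 0.11, edgeR FDR = 0.0115). Old vehicle males had 75.1, 84.5, 87.6 and 68.5 CPM against 47.1, 50.1, 41.8 and 50.9 in young vehicle males. The male groups did not overlap either, with a log2 fold change of 0.74 (SE 0.11, edgeR FDR = 0.00808). With limma on FPKM values, which hold 1 more male in each group, neither Igfbp7 (FDR = 0.176) nor Igfbp2 (FDR = 0.236) passed in males. With a block for the replicate number Igfbp7 did not pass in males either (FDR = 0.0815).

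Levels of cell type markers are given beside these members. Of 9 markers of stellate cells and fibroblasts, 3 were called higher in old females (Des, Col1a1 and Colec11) and 1 in old males (Des), and none was called lower. Their summed level was 389.6 to 606 CPM in old and 413 to 570.4 in young vehicle females, and 290 to 511 in old and 252 to 341 in young vehicle males. The share of 3 in 9 is near that of all genes called in females, and the sums of old and young mice overlapped in both sexes. Of 8 macrophage and Kupffer cell markers, 7 were called higher in old females (median log2 fold change 1.09) and 1, Cd68, in old males (median 0.95). They summed to 311 to 626 CPM in old and 204 to 308 in young females, and to 126 to 404 in old and 88.9 to 200.2 in young males. Of 6 cholangiocyte markers, 2 were called higher in each sex, with sums of 51.1 to 72.9 CPM in old and 43.2 to 50.4 in young females, and 55.9 to 75.5 and 26.7 to 43.0 in males. Of the 5 hepatocyte markers tested, 1 was called lower in old females and 0 in old males. They summed to 92290 to 118510 CPM in old and 97790 to 106015 in young females. In males the sums were 106120 to 155411 in old and 89608 to 102509 in young, without overlap. Of 8 sinusoidal endothelial markers, 1 was called lower in old females and 0 in old males. Sums were 248 to 309 CPM in old and 242 to 319 in young females, and 197 to 205 and 167 to 222 in males. No marker of these lists was at 0 in every mouse of a group. Their part in the differences in Igfbp1, Igfbp2 and Igfbp7 was not tested. In whole liver, fewer cells of a type and less RNA per cell cannot be told apart.

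Igfbp1, the binding protein under control by insulin and fasting, was called in females alone. Old vehicle females had 93.7, 91.5, 152 and 129 CPM, and young vehicle females 37.6, 37.5, 76.0, 100.1 and 54.9. A single young female reached into the range of the old. The log2 fold change was 0.95 (SE 0.27, edgeR FDR = 0.0174). It missed the threshold with all 6 groups in one fit (0.93, FDR = 0.224). In old vehicle males Igfbp1 stood at 183, 19.4, 53.1 and 10.1 CPM, and in young vehicle males at 14.4, 31.0, 112 and 54.4. The male groups overlapped over most of their range, with a log2 fold change of 0.33 (SE 0.83, FDR = 0.851), and the male value turned to -0.93 without old male 2. The difference between the sexes was 0.63 (SE 0.92, FDR = 0.753), so an effect in females alone was not shown.

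Igfbp5, a binding protein that sticks to matrix and is found in stroma, had 9.47, 8.17, 7.69 and 7.05 CPM in old vehicle males and 10.3, 11.3, 16.6 and 13 in young vehicle males. Every old male with counts was below every young male with counts, but the log2 fold change of -0.66 (SE 0.17) missed the threshold with edgeR (FDR = 0.0569). It passed with DESeq2 (FDR = 0.0106). The 2 males without counts went the other way by FPKM. Old vehicle male 1 had 2.31, above the 1.54 to 2.21 of the young males with counts. Young vehicle male 5 had 0.720, below the 0.931 to 1.44 of the old males with counts. Old vehicle females had 20.7, 22.8, 5.64 and 17.6 CPM and young vehicle females 8.57, 15.2, 5.14, 10.2 and 14.1. The low old female lay near the bottom of the young range and the other 3 lay above it, with a log2 fold change of 0.67 (SE 0.35, FDR = 0.169). This change passed without old female 3 (0.95, FDR = 0.0163) and with a block for the replicate number (0.74, FDR = 0.0161). The age effect differed between the sexes by 1.34 (SE 0.47), at FDR = 0.103 with edgeR and 0.0442 with DESeq2.

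Igfbp3, the main plasma carrier of Igf1, had group means of 34.1 ± 7.79 CPM in old and 31.4 ± 5.41 in young vehicle females (SD, n = 4 and 5), and 26.1 ± 10.7 and 22.0 ± 7.34 in males (n = 4 each). Its log2 fold changes of 0.14 and 0.25 were within their errors (SE 0.15 and 0.30). For Igfbp4 the changes were -0.13 (SE 0.11) and -0.01 (SE 0.15), and for Igfbp6 -0.25 (SE 0.70) and -0.13 (SE 0.45). Over both sexes, no member passed the edgeR test for a difference in the age effect, where 3.92% of 14721 genes did. At an unadjusted p under 0.05 by edgeR there were 2 members, Igfbp2 and Igfbp5, beside 3160 of 14721 genes. The same 2 members passed with DESeq2. With limma on FPKM values 0 passed.

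**Figure D3:**
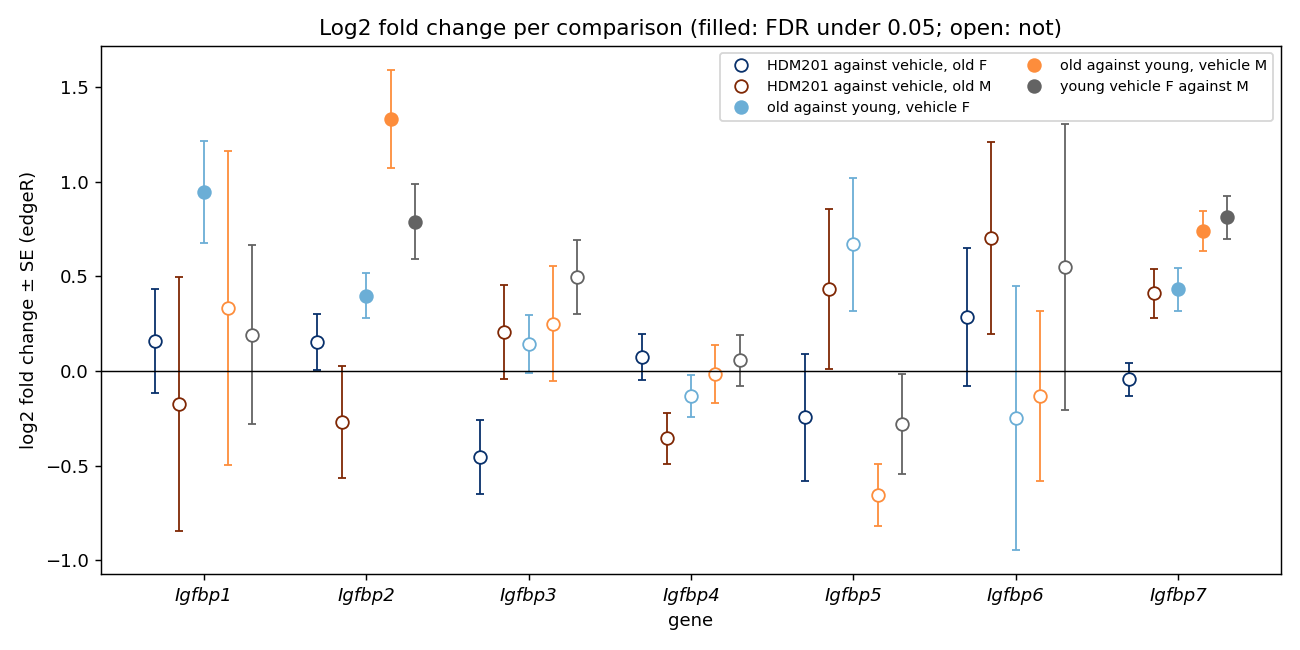
Log2 fold change ± SE of each IGF binding protein in 5 comparisons (edgeR). Filled points passed an FDR of 0.05, and all of them lie above 0 and belong to Igfbp1, Igfbp2 and Igfbp7.

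The young vehicle mice are the only groups in which females and males had the same age, substrain and treatment. Here 2 of 7 members passed, both higher in females, where 10.5% of 13875 genes passed and 5.63% passed as higher. Igfbp2 was at 275 to 385 CPM in the 5 young females and 115 to 272 in the 4 young males. The groups did not overlap, with a log2 fold change of 0.79 (SE 0.20, edgeR FDR = 0.0270). That call was lost without any 1 of young females 1, 4 and 5 or young male 4, at FDR from 0.0525 to 0.0729, and with limma on FPKM values (FDR = 0.0555). It was also lost with a block for the replicate number (FDR = 0.0631).

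Igfbp7 was 84.1 ± 11.5 CPM in young females and 47.5 ± 4.14 in young males (SD, n = 5 and 4), and the lowest female at 69.5 was above the highest male at 50.9. The log2 fold change was 0.81 (SE 0.11, edgeR FDR = 0.000978). Beside it, 4 of 9 stellate and fibroblast markers, 3 of 8 sinusoidal endothelial markers and 5 of 8 macrophage and Kupffer cell markers were called higher in young females, and none was called lower. The summed stellate and fibroblast markers were 413 to 570.4 CPM in the females and 252 to 341 in the males, without overlap. The endothelial markers summed to 242 to 319 CPM in the females and 167 to 222 in the males, and the macrophage markers to 204 to 308 and 88.9 to 200.2, also without overlap. The part of these cells in the sex difference was not tested. Igfbp3 was higher in young females at an unadjusted p = 0.0246 by edgeR (log2 fold change 0.50, SE 0.19, FDR = 0.117), and passed without young male 4 (0.76, FDR = 0.0160).

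HDM201 was compared with vehicle to ask what raising p53 does in the aged liver. These comparisons use the same old vehicle mice as the comparisons with young mice. No member passed in females, where 5.25% of 14445 genes did (edgeR), nor in males, where 1 of 14109 genes, or 0.00709%, did. The background in females ranged from 46 genes with limma on FPKM values to 1330 with DESeq2, and was 185 without old vehicle female 2. DESeq2 and limma also called 0 of the 7 in each sex. At an unadjusted p under 0.05, edgeR gave 1 member in females, Igfbp3, and 2 in males, Igfbp4 and Igfbp7. Of all genes tested, 3247 of 14445 in females and 1710 of 14109 in males reached this p. The median log2 fold change of the 7 was 0.07 in females and 0.21 in males, beside 0.00 and 0.01 over all genes tested.

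Igfbp3 is the member most often described as a target of p53. Females given HDM201 had 17.8, 30.8, 19.3, 24.4 and 33.2 CPM, and females given vehicle 31.8, 43.7, 35.9 and 25.1. The groups overlapped, and the log2 fold change was -0.45 (SE 0.20, unadjusted p = 0.0383 and FDR = 0.189 by edgeR). In males HDM201 mice had 30.3, 26.6, 31.9, 38.5 and 22.8 CPM and vehicle mice 39.1, 30.1, 20.0 and 15.2, a log2 fold change of 0.21 (SE 0.25). The difference between the sexes was -0.66 (females minus males, SE 0.34, FDR = 0.315).

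Igfbp7 in males was 122, 104, 96.5, 119.8 and 80.7 CPM with HDM201 and 75.1, 84.5, 87.6 and 68.5 with vehicle. Of the 5 treated males, 4 were above every vehicle male, with a log2 fold change of 0.41 (SE 0.13, unadjusted p = 0.00905 and FDR = 0.289 by edgeR). Beside it, the summed stellate and fibroblast markers were 341 to 558 CPM in treated and 290 to 511 in vehicle males. Their part was not tested. Treated females had 114, 98.5, 103, 115 and 115 CPM of Igfbp7, within the vehicle range of 101 to 131 but for the lowest mouse, and the change was -0.04 (SE 0.09). The effect differed between the sexes by -0.45 (SE 0.16, unadjusted p = 0.0119), with FDR = 0.145.

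Igfbp4 in males was 1447, 1728, 1437, 1784 and 1325 CPM with HDM201 and 2017, 1599.8, 2111 and 2202 with vehicle. The lowest vehicle male lay inside the treated range and the other 3 lay above it, with a log2 fold change of -0.35 (SE 0.13, unadjusted p = 0.0233 and FDR = 0.351 by edgeR). In females the change was 0.07 (SE 0.12). Igfbp6 in males changed by 0.70 (SE 0.51, FDR = 0.59), which became 0.08 without treated male 4. No member passed the edgeR test for a difference between the sexes in the HDM201 effect, where 16 of 14974 genes, or 0.107%, did. At an unadjusted p under 0.05 by edgeR there were 2 members, Igfbp4 and Igfbp7, beside 2774 of 14974 genes. DESeq2 and limma called 0 members.

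The members called with age had these values after HDM201. Igfbp1 stood at 125, 209.6, 114, 144 and 61.6 CPM in treated females and at 64.0, 78.1, 62.4, 62.8 and 26.3 in treated males, inside or around the range of the vehicle mice of each sex. The log2 fold changes against vehicle were 0.16 (SE 0.27) and -0.17 (SE 0.67). Igfbp2 stood at 631, 592, 456, 414 and 398 CPM in treated females and at 255, 580.3, 513, 477 and 208 in treated males, with changes of 0.15 (SE 0.15) and -0.27 (SE 0.30). In females, 7 of 8 macrophage and Kupffer cell markers were called lower with HDM201, with sums of 186 to 312 CPM in treated and 311 to 626 in vehicle mice. Of 6 cholangiocyte markers, 2 were called higher, with sums of 85.8 to 151 CPM in treated and 51.1 to 72.9 in vehicle females. Of the 5 hepatocyte markers tested, 1 was called lower. None of the stellate and fibroblast or sinusoidal endothelial markers was called, and no member of the family was called.

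Across the 6 groups, most neighbours in the order of the group means overlapped for every member. For Igfbp7 the order from lowest to highest was young vehicle males, old vehicle males, young vehicle females, old HDM201 males, old HDM201 females and old vehicle females, with means of 47.5, 78.9, 84.1, 105, 109 and 112 CPM. Only the first step, from young to old vehicle males, parted neighbours without overlap. For Igfbp2 the order was young vehicle males, young vehicle females, old HDM201 males, old vehicle females, old vehicle males and old HDM201 females, with means of 196, 342, 407, 445, 491 and 498 CPM. There too only the lowest group stood apart from its neighbour. No neighbours were parted in the orders of Igfbp1, Igfbp3, Igfbp4, Igfbp5 or Igfbp6.

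Whether the members vary together from mouse to mouse was tested on deviations of log2(CPM + 1) from the group means over 27 mice. Of 36 relations tested, 21 of them pairs of members, only that of Igfbp5 with Igfbp6 passed by both measures. Pearson's r was 0.78 and Spearman's rho 0.79 (permutation within groups, 2-sided p = 5e-05 and 6e-05, adjusted over the 36 relations 0.0018 and 0.00216). Without the 2 mice farthest from the median of Igfbp5, r was 0.76, and r was 0.73 over the 14 females and 0.86 over the 13 males. Igfbp4 with Igf1 passed by rho alone (rho 0.62, permutation p = 0.00165, adjusted 0.0297, with r 0.52 and adjusted 0.179), and r fell to 0.40 without 2 mice. The neighbouring genes Igfbp1 and Igfbp3 had r 0.41 (permutation p = 0.161, adjusted 0.55), and Igfbp2 and Igfbp5, the other neighbouring pair, had r -0.09 (permutation p = 0.757, adjusted 0.834).

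Igfbp5 and Igfbp6 also moved with genes of the mesothelium, the cell sheet that covers the liver. With the summed level of 6 mesothelial markers, among them Msln and Upk3b, the deviations had r 0.92 for Igfbp6 and 0.86 for Igfbp5 over 27 mice, values given as a description of libraries that share their depth. None of the 6 markers was at 0 in every mouse of a group, and their sums were low, from 1.75 CPM in a young vehicle male to 33.3 in an old HDM201 male. That male, number 4, also had the highest Igfbp5 of all mice, 23.5 CPM, and the highest Igfbp6, 4.72 CPM. Igfbp7 had r 0.77 and Igfbp3 r 0.65 with the summed stellate and fibroblast markers, and Igfbp2 had r 0.67 with the summed hepatocyte markers. Igfbp1 had no r above 0.41 and Igfbp4 none above 0.49 with any of the 7 marker lists. By Spearman's rho the order differed, with 0.47 for Igfbp2 and 0.56 for Igfbp4 with the hepatocyte markers. With the macrophage and Kupffer cell markers, r lay between -0.17 and -0.05 for all 7 members.

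**Figure D4:**
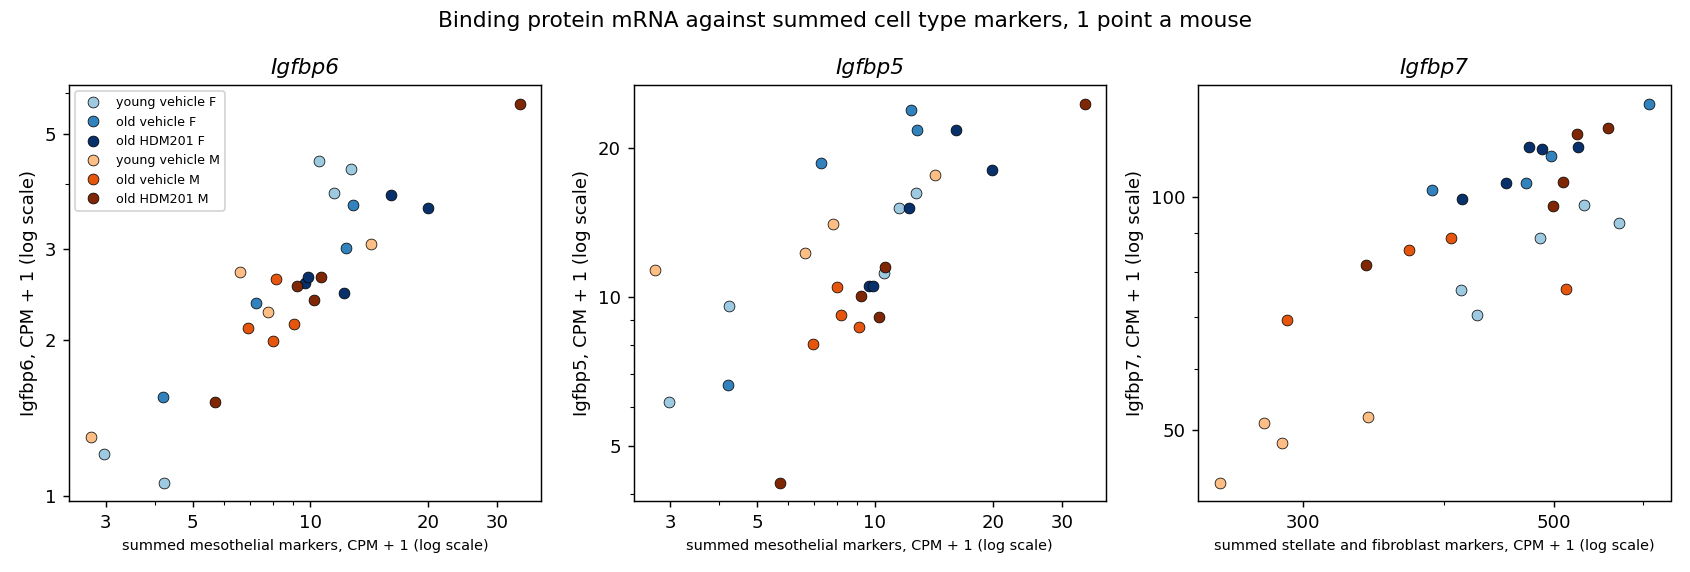
Igfbp6 and Igfbp5 against the summed CPM of mesothelial markers, and Igfbp7 against the summed CPM of stellate and fibroblast markers, each plus 1 on log axes, 1 point a mouse. The old HDM201 male with the highest mesothelial sum, 33.3 CPM, has the highest Igfbp6 and Igfbp5.

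The genes whose log2(CPM + 1) was most like each member over all 27 mice, among 13285 genes, are given as a description. For Igfbp6 they were Upk3b (r 0.91) and Msln (r 0.87), and for Igfbp5 Rspo1 (r 0.79) and Upk3b (r 0.74). For Igfbp7 they were the matrix genes Prelp (r 0.94) and Emilin1 (r 0.93). Igfbp1 was most like Irf2bp2 (r 0.84) and Tmprss2 (r 0.78), and Igfbp2 most like Shf (r 0.83) and H2-T23 (r 0.81). For Igfbp3 they were Myzap and Ccbe1 (r 0.74 each), and for Igfbp4 Ndfip1 and Por (r 0.78 each). With group means removed, r was 0.91 for Igfbp6 with Upk3b, 0.73 for Igfbp7 with Prelp, 0.75 for Igfbp1 with Irf2bp2 and 0.64 for Igfbp2 with Shf.

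Among the partners of the binding proteins, Igf1 was called lower and Igfals higher in old females. Igf1 was 405 ± 9.04 CPM in old and 519 ± 94.2 in young vehicle females (SD, n = 4 and 5), a log2 fold change of -0.34 (SE 0.12, edgeR FDR = 0.0472). This call was lost without any 1 of the 4 old females or of young females 1, 2 and 3 (FDR from 0.053 to 0.11). The lowest young female, at 398 CPM, lay inside the range of the old, and the highest reached 642. Igfals was 199 ± 31.5 CPM in old and 132 ± 25.2 in young vehicle females, and the groups did not overlap, with a log2 fold change of 0.61 (SE 0.14, FDR = 0.00557). In males Igfals was 113 ± 9.41 CPM in old and 137 ± 30.4 in young vehicle mice (n = 4 each), a change of -0.27 (SE 0.16, FDR = 0.367). The effect of age on Igfals differed between the sexes by 0.89 (SE 0.23, edgeR FDR = 0.0370). That difference missed the threshold without any 1 of old females 1, 2 and 4, old males 2 to 5, young males 3 and 4 or young females 1, 2, 4 and 5 (FDR from 0.0514 to 0.0851). Igf2, the fetal ligand, was at no more than 0.272 CPM in any mouse and was not tested.

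Over the 6 lists of the IGF system, 15 of 36 genes tested, or 41.7%, were called in old females, beside 31.8% of all genes. Of 8 receptors and adaptors, Irs1 and Irs2, the docking proteins of the insulin and IGF1 receptors, were called higher in old females (log2 fold changes of 0.76 and 0.87, edgeR FDR = 0.0120 and 0.0121), and Insr and Grb14 lower (-0.27 and -0.36). Of the 8 proteases of binding proteins and their inhibitors, 3 were tested and Htra1 was called higher (0.85). Of the 8 related proteins with an IGFBP-type domain, 5 were tested, and Esm1 (1.12) and Htra3 (0.98) were called higher. In the growth hormone axis, 2 of 7 were called higher, Stat5a (0.80) and Prlr (0.68). In the list of 11 genes of fasting and insulin response, 1 was called higher, Pdk4 (1.67), which spares glucose in fasting, and 3 lower, Acly (-1.21), Ppargc1a (-0.62) and Cpt1a (-0.57). Members of this list known to rise in fasting went both ways. Irs1, Irs2, Htra3, Stat5a, Pdk4, Cpt1a and Igfals kept their calls without any 1 mouse. Those of Insr, Grb14, Htra1, Esm1, Prlr, Ppargc1a and Acly were each lost without at least 1 mouse, all of them without old female 2 or old female 4.

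In males none of the 36 genes tested from these 6 lists was called with age by edgeR, while DESeq2 called 1 and limma 0. In edgeR, 6 of them reached an unadjusted p under 0.05, beside 3007 of all 13755 genes tested. With HDM201, Grb14 (0.56, edgeR FDR = 0.00556) and Cpt1a (0.70, FDR = 0.0198) were called higher in females, 5.56% of the genes tested in these lists beside 5.25% of all genes. The call of Cpt1a was lost without old vehicle female 2 or 4 or treated female 4 (FDR from 0.0519 to 0.0767). The single gene called in males was Cish, a growth hormone target that inhibits its signal, at 9.41 ± 1.76 CPM with HDM201 and 32.8 ± 10.4 with vehicle (SD, n = 5 and 4, log2 fold change -1.79, SE 0.20, FDR = 0.0350). It was lost without any 1 of treated males 1, 2, 3 and 5 (FDR from 0.0666 to 0.183), and with limma on FPKM (FDR = 0.715). The call was also lost with all 6 groups in one fit (FDR = 0.0671) and with a block for the replicate number (FDR = 0.106). The HDM201 effect on Cish differed between the sexes by 2.36 (SE 0.35, FDR = 0.0400), a call lost without vehicle female 1 or 2 or treated male 1 or 5 (FDR from 0.0517 to 0.0804). That call was also lost with all 6 groups in one fit, with the replicate block and with limma. In young mice, Prlr was the one gene of these lists called between the sexes, higher in females (1.11, FDR = 0.0120).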

How the data were processed

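Polyadenylated RNA of whole liver was sequenced. STAR (genome mm10) and HTSeq gave the counts per gene that the authors deposited, not normalized, for 27 of 29 mice. The design took all mice of each group, and old vehicle male 1 and young vehicle male 5 had no counts. The authors made the deposited FPKM values with Cufflinks. Tool versions and strand are not given in the sources used here. Empty FPKM cells were read as 0.

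Fits used edgeR 4.0.16 (R 4.3.3) and only the groups compared, with filterByExpr (minimum count 10, minimum total 15), TMM and the quasi-likelihood test. Each SE was derived, as the absolute log2 fold change divided by the square root of the F statistic of this test. FDR was by Benjamini-Hochberg over all genes tested, with a threshold of 0.05. A difference between the sexes is an interaction term. Alternatives were RLE size factors, DESeq2 1.42.0, no filter, a single fit of all 6 groups, a block for the replicate number, leaving out each mouse, FDR under 0.01, and limma 3.58.1 on log2(FPKM + 1) with a minimum group mean of 0.1. The code was tested on simulated data. CPM used TMM library sizes. Correlations used 100000 permutations of mice within groups.

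The members and lists were chosen with earlier results of these data known. Named genes are the members, Igf1, Igf2 and Igfals, at most 4 called genes per list and comparison by smallest FDR, and the 2 genes most like each member, leaving out Gm, Rik and clone names. Lists held 45 genes of the IGF system, all found, and 48 markers, 47 found. Gene positions are from GENCODE M21, where 54587 of 55421 gene IDs matched, and upstream sequences from RefSeq (GRCm38.p6), with 7 of 7 members matched. The paper says that mice came from Jackson Labs and Charles River and were housed in groups. Which mice shared a vendor, cage or litter is not stated by label, so p-values measure the spread between mice as labelled. Libraries of a group differed by 12.1 to 98.0 times the counting noise (chi-square per gene), so none was a duplicate.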

Additional observations from a re-analysis of the deposited data

Results flagged for a closer look

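Igfbp6 in old HDM201 males: mouse 4 had 4.72 CPM, far from the nearest of the other 4 mice at 1.66 CPM, a gap of 0.729 of the whole range where the limit for 5 mice is 0.710. This was the single such value in 42 sets of mice (7 genes in 6 groups), and chance alone gives about 1 in 20. The same mouse had the highest summed mesothelial markers, 33.3 CPM. Their part in the value was not tested. Without this mouse the log2 fold change of Igfbp6 with HDM201 in males was 0.08 in place of 0.70.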

How the results depend on the processing

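Of 49 log2 fold changes (7 members in 7 comparisons), leaving out 1 mouse kept the direction and the side of the threshold in 507 refits, lost the call in 10, gained it in 6 and turned the direction in 30. Other settings did so in 311, 10, 7 and 15. HDM201 comparisons, and the difference between the sexes in the HDM201 effect, had 0 members called under every setting. The cause of each change below was not tested.

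Members called with age in females (3) were 0 at FDR under 0.01, 1 with all 6 groups in one fit, and 2 to 4 with a mouse left out. With age in males (2) there was 1 at FDR under 0.01, 0 with limma on FPKM, and 1 to 3 with a mouse left out. Between young females and males (2) there was 1 at FDR under 0.01, 1 with limma on FPKM, and 1 to 2 with a mouse left out. For the difference in the age effect (0) there were 2 with DESeq2, 2 without a filter, and 0 to 1 with a mouse left out. The number of all genes called moved by over 1.5 times in every comparison but that of old with young females. With HDM201 in females, 758 became 1330 with DESeq2, 208 with all 6 groups in one fit, 46 with limma and 185 to 956 with a mouse left out, and in males 1 became 162, 6, 1 and 0 to 13, and 22 without a filter. With age in males, 507 became 1318, 2007, 58 and 144 to 579, and 968 without a filter. For the sex difference with HDM201, 16 became 643, 11, 0 and 0 to 314, and 122 without a filter. For that with age, 577 became 1187, 852, 206 and 207 to 1193. Between young females and males, 1462 became 2082, 2483, 439 and 764 to 1864. Under the replicate block these counts were 370, 1, 24, 0, 34 and 850. Relations past the threshold rose from 1 to 6 of 36 without removing group means. The median Igfbp4 share was 75.4% of CPM and 54.6% per kilobase of exon.

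Same-numbered mice had correlations from -0.222 to 0.222. No pairs with different numbers were set beside them, so whether same-numbered mice shared a cage or batch is not known. With the replicate number as a block, 3 members were called with age in females, 0 in males, 1 between young females and males, and 0 elsewhere. The 3 in females held Igfbp5 (FDR = 0.0161) and not Igfbp2 (FDR = 0.0586). On the same mice without the block, an alternative chosen after seeing the data, 2 were called in males and 1 between young females and males. Under the block the log2 fold change turned for Igfbp1 with HDM201 in males (0.51), Igfbp6 with age in females (0.23), Igfbp4 with age in males (0.0241, and 0.028 on the same mice without it) and Igfbp4 for the sex difference with age (0.00309, and 0.0136 on the same mice without it).

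With limma on FPKM, which adds 2 males, it turned for Igfbp1 with HDM201 in males (0.87), with age in males (-0.88), between young females and males (-0.10) and for the sex difference with HDM201 (-0.73), for Igfbp2 with HDM201 in males (0.0597), for Igfbp4 with age in males (0.0612), and for Igfbp6 with age in females (0.12) and males (0.25) and the sex difference with HDM201 (0.12).

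Leaving out 1 mouse turned the following values, none of them called. Igfbp1 ranged from -0.0736 to 0.34 with HDM201 in females, -0.53 to 1.09 in males, -0.93 to 0.69 for their difference, -0.93 to 1.00 with age in males, -0.0388 to 1.89 for the sex difference with age and -0.12 to 0.87 between young females and males. Igfbp3 ranged from -0.00427 to 0.27 with age in females, -0.0119 to 0.51 in males and -0.35 to 0.16 for their difference. Igfbp4 ranged from -0.11 to 0.0766 with age in males and -0.028 to 0.15 between young females and males, Igfbp5 from -0.0634 to 0.67 with HDM201 in males, and Igfbp7 from -0.0872 to 0.0413 with HDM201 in females. Igfbp6 ranged from -0.55 to 0.0246 with age in females, -0.45 to 0.15 in males, -0.43 to 0.21 for their difference and -0.68 to 0.21 for the sex difference with HDM201.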

Other observations

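The 2 males with FPKM values and no counts entered no comparison of counts. Old vehicle male 1 had an Igfbp7 FPKM of 228, against 70.2 to 97.7 in the other old vehicle males, and an Igfbp6 FPKM of 4.66, against 1.04 to 1.63. Its Igfbp2 FPKM of 144 was below the range of the others, 234 to 458. Young vehicle male 5 had an Igfbp1 FPKM of 196, against 8.36 to 61.8 in the other young vehicle males. Its Igfbp4 FPKM of 499.8 was below their range of 610.1 to 819. The FPKM values of old vehicle male 1 summed to 741496 over all genes, beside a median of 725676 and a highest sum of 6010510 in the other mice. Those of young vehicle male 5 summed to 690769, below the lowest of the other mice, 703630.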
